A study of Rattus norvegicus with 15 samples.

Results

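Basal and myoepithelial cells form the outer layer of the mammary epithelium, and 10 genes that mark them were followed through 15 rat mammary tumours. TP63, SOX10 and TRIM29 are regulators of the basal lineage and NGFR is a receptor on basal cells. ACTA2, MYH11, CNN1, TAGLN and MYLK build and drive the contractile apparatus, and OXTR is the receptor through which oxytocin sets it off. The genes were taken by symbol from a count table of 17463 genes, all 10 were found, and all 10 passed the filter on low counts. The table writes rat symbols in capitals.

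The tumours came from Fischer rats given 2 intraperitoneal doses of the carcinogen N-nitroso-N-methylurea (NMU, 50 mg/kg each). Before each dose, rats of the midkine group (9 libraries) had 2 weeks of rat midkine recombinant protein (300 ug/kg per injection, 3 injections weekly). The other 6 libraries are labelled vehicle, and the labels spell out the schedule for the midkine group only. The labels give no age, and the libraries were made from ground pieces of whole tumour, so every cell type in a piece adds to its counts. Some libraries of a group share a title number (vehicle 2-1 and 2-2, midkine 3-1 and 3-2, midkine 4-1, 4-2 and 4-3), and no label says whether these are tumours of 1 animal, so p-values measure the spread between libraries. The study's question was the role of midkine, a heparin-binding growth factor, in mammary tumour formation with age.

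In the normal gland, luminal cells secrete milk and the myoepithelial cells around them squeeze it out. Myoepithelial cells are epithelial cells that carry basal keratins and the p63 protein and at the same time make the actin, myosin and regulatory proteins of smooth muscle. Suckling releases oxytocin, which binds its receptor, raises calcium in the cell and activates myosin light chain kinase. Vascular smooth muscle, pericytes and myofibroblasts use many of the same contractile genes, Schwann cells express SOX10 and NGFR, and keratinocytes express TP63 and TRIM29.

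Libraries held 4925504 to 8486523 counted reads (median 7252603). Levels are given as CPM, the usual depth-scaled read count, here after trimmed-mean scaling, and since they are not divided by transcript length they compare libraries for 1 gene and not 1 gene with another. Midkine 1 stood apart by skeletal muscle transcripts, with 101000 CPM of the muscle myosin gene MYH4. MYH4 had at most 1 count in midkine 3-1, 3-2, 4-1, 4-2 and 4-3 and lay between 69.4 and 163 CPM in the other 9 libraries. The 10 libraries with MYH4 reads, all 6 vehicle and 4 midkine, were also compared on their own. In bulk tissue, fewer cells of a type and less RNA per cell cannot be told apart.

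**Figure D1:**
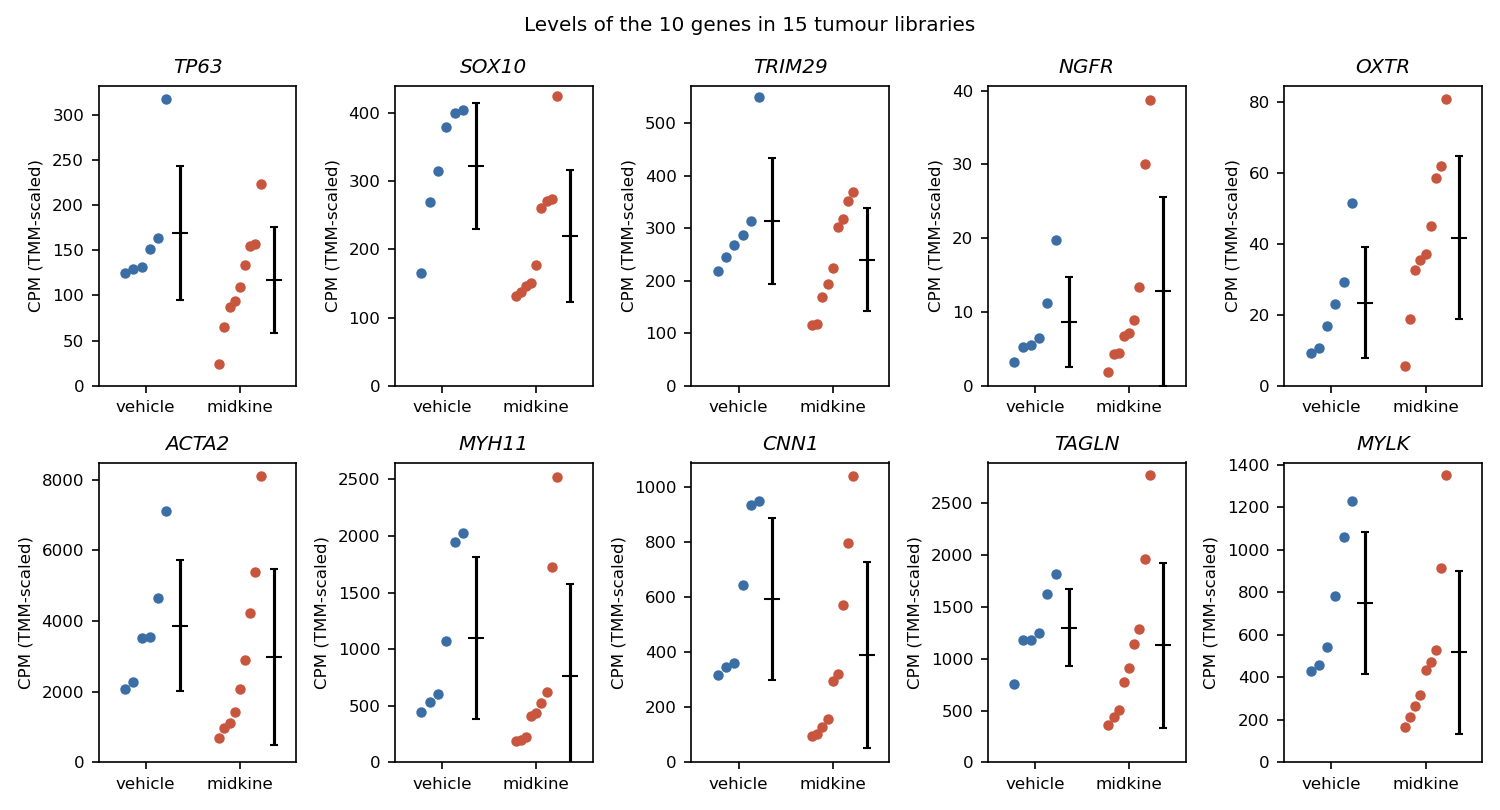
CPM of the 10 genes (vertical axes, starting at 0) in 6 vehicle and 9 midkine libraries; each point is 1 library and the bars show the mean ± SD, cut at 0 for NGFR and MYH11 in midkine tumours. The groups overlapped for every gene, and the midkine libraries reached lower for all 10 genes and higher for 8.

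None of the 10 genes differed between midkine and vehicle tumours beyond the spread of the libraries. In edgeR's quasi-likelihood test, 0 of 10 passed an adjusted p of 0.05, against 0% of the 11665 genes tested, and 0 of 10 had an unadjusted p under 0.05, against 10.1% of all genes (7.96% higher and 2.13% lower in midkine tumours). DESeq2 called 0 of the 10 as well (0.726% of the genes it gave an adjusted p, 0.0525% as lower), with 0 at an unadjusted p under 0.05. Of the 10, limma-voom put SOX10 alone under 0.05 unadjusted (5.16% of all genes) and called 0. Log2 fold changes were below 0 for 8 of the 10, against 44.3% of all genes. The 2 genes above 0 were NGFR and OXTR. Of the 8, the 5 contractile genes varied together across libraries (r of 0.87 to 0.97), so the 8 are not separate observations. The median of the 10 was -0.46 against 0.04 for all genes. It was -0.35 without midkine 1 and -0.23 in the 10 libraries with MYH4 reads, against 0.02 for all genes in both. For none of the 10 did the groups fall apart without overlap, which was so for 0.0171% of all genes.

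TP63 encodes p63, the transcription factor that maintains basal cells. It stood at 125 CPM in the lowest vehicle library, 141 at the median and 317 in the highest (vehicle 6). In midkine tumours the lowest library had 24.7 CPM (midkine 3-2), the median was 109 and the highest was 223 (midkine 2). Of the 9 midkine libraries, 5 lay below every vehicle library, while the other 4 lay among them. Mean levels were 169 ± 73.7 CPM (SD, n = 6) and 117 ± 58.3 CPM (SD, n = 9), a log2 fold change of -0.54 (SE 0.36, 95% interval -1.29 to 0.22, adjusted p = 0.654 by edgeR). Without vehicle 6, and likewise in the 10 libraries with MYH4 reads, the value was -0.26.

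SOX10, an SRY-related factor of neural crest and of mammary progenitor and basal cells, came nearest to a difference among the basal regulators. Its lowest, median and highest levels were 166, 346 and 404 CPM in vehicle tumours and 132, 177 and 424 CPM in midkine tumours. Only midkine 2, the highest of all libraries, lay above the vehicle median, and only vehicle 3 lay below the midkine median. The means of 322 ± 92.9 CPM (SD, n = 6) and 219 ± 96.7 CPM (SD, n = 9) gave a log2 fold change of -0.55 (SE 0.27, 95% interval -1.13 to 0.03, unadjusted p = 0.0609 and adjusted p = 0.520 by edgeR). The value was -0.73 without midkine 2 (unadjusted p = 0.00838, adjusted p = 0.27) and -0.22 in the 10 libraries with MYH4 reads.

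TRIM29, a tripartite-motif protein of basal and squamous epithelium, ran from 219 CPM through a median of 278 to 549 CPM (vehicle 6) in vehicle tumours. In midkine tumours it ran from 116 CPM (midkine 4-2) through 224 to 369 CPM (midkine 2). Its means were 314 ± 120 CPM (SD, n = 6) and 240 ± 97.8 CPM (SD, n = 9), with a log2 fold change of -0.39 (SE 0.29, 95% interval -0.99 to 0.22, adjusted p = 0.709 by edgeR). Here too vehicle 6 carried much of the value, which was -0.15 without it.

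Midkine 3-2 separated TRIM29 from TP63. It held the lowest TP63 level of all libraries, 24.7 CPM, beside 303 CPM of TRIM29, more than 4 of the 6 vehicle libraries. Reads of TRIM29 outnumbered those of TP63 by 12.3 to 1 there, against 1.25 to 2.36 in the other 14 libraries. SOX10 reads stood at 5.97 per TP63 read in midkine 3-2 and at 1.10 to 3.13 elsewhere. The same library had the highest summed level of keratinocyte markers (170 CPM, against 31.0 to 106). Midkine 3-2 was the highest library for DSC3 (65.3 CPM), PKP1 (46), DSG3 (31.9) and TGM1 (23.4) of that list, but the lowest for KRT10 (3.54). Its summed level of luminal markers was also the highest (12700 CPM, against 2340 to 11500), with 4490 CPM from the claudin gene CLDN4 alone, while by the mean log2 CPM of that list vehicle 2-1 was higher (8.06 against 7.99). CLDN4, DSC3, DSG3 and KRT10 were named after their values were seen. The part of these cells in the TRIM29 level was not tested.

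**Figure D2:**
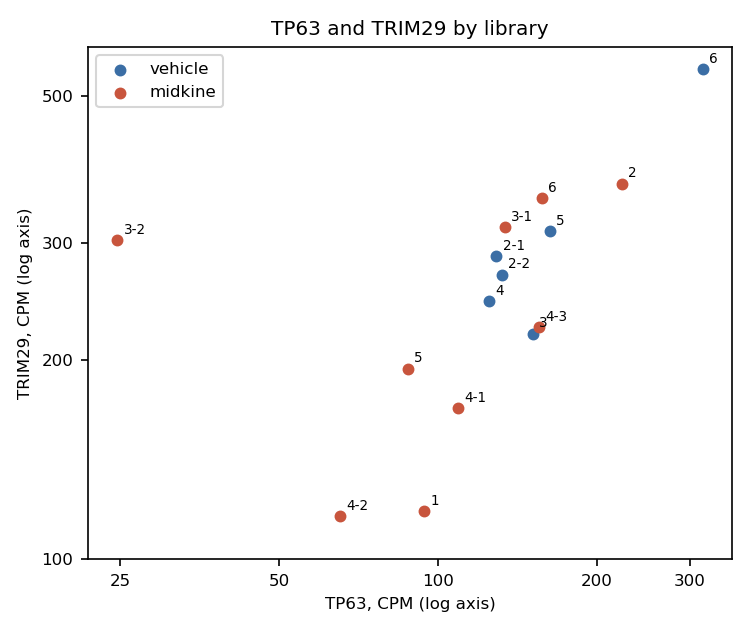
TRIM29 against TP63 in CPM (both axes logarithmic), 1 point per library with its title number, blue for vehicle and red for midkine. Midkine 3-2 lies to the left of all others at 24.7 CPM of TP63 and 303 CPM of TRIM29, and vehicle 6 is highest for both genes at 317 and 549 CPM.

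NGFR, the p75 neurotrophin receptor, was the scarcest of the 10 in reads, with 15 to 250 counts per library. Vehicle libraries had 3.24 CPM at the lowest, 6.05 at the median and 19.8 at the highest, and midkine libraries had 1.86, 7.20 and 38.7 CPM. Midkine 3-1 (38.7 CPM) and 4-2 (30.1 CPM) stood above the rest, and the next library was vehicle 2-2. The log2 fold change was 0.58 (SE 0.61, 95% interval -0.72 to 1.87, adjusted p = 0.815 by edgeR), it was 0.16 without midkine 3-1, and in the 10 libraries with MYH4 reads, which leave out both high libraries, it was -0.11 (SE 0.51).

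NGFR is also a marker of follicular dendritic cells in lymph nodes, and midkine 4-2 carried transcripts of such tissue. The B cell gene MS4A1 and the complement receptor gene CR2 of B and follicular dendritic cells stood at 126 and 207 CPM there. In midkine 3-1, where NGFR was highest, both stood at 0.984 CPM. Of the 8 genes of this list, which was added with earlier results of these data known, 2 passed the filter on low counts, with summed levels of 2.24 to 6.42 CPM in vehicle and 2.39 to 132 CPM in midkine libraries. MS4A1, CD79B and CR2 were among the list's genes that were at 0 in at least 1 library of each group, and the list's part in the NGFR level of midkine 4-2 was not tested.

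The ligands and co-receptors of NGFR were split. Of 11 tested, 6 lay higher and 5 lower in midkine tumours, with 0 past the threshold and a median log2 fold change of 0.19. NTRK2, which encodes the BDNF receptor TrkB, averaged 2.06 ± 1.32 CPM over vehicle libraries (SD, n = 6) and 16.5 ± 31.2 CPM over midkine libraries (SD, n = 9), with a log2 fold change of 2.98 (SE 0.99, adjusted p = 0.399 by edgeR and 0.0428 by DESeq2). Midkine 4-2 alone held 98.9 CPM of it, and without that library the value was 1.56.

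The 5 contractile genes had wide ranges, between 7.61-fold (TAGLN) and 13.1-fold (MYH11) from the lowest to the highest library. Midkine 2 was the highest library for each of the 5, above every vehicle tumour. Midkine 1 and 3-2 took the lowest 2 places for each of the 5. The midkine group thus held both ends of the range, and its mean over the 5 genes was 9.35 ± 1.13 log2 CPM (SD, n = 9) against 10.08 ± 0.64 in vehicle (SD, n = 6).

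ACTA2 encodes smooth muscle alpha-actin, the thin filament. Its lowest, median and highest levels were 2090, 3540 and 7110 CPM in vehicle tumours and 699, 2070 and 8110 CPM in midkine tumours. No vehicle library lay below the midkine median, and 5 of 9 midkine libraries lay below every vehicle library. The log2 fold change was -0.37 (SE 0.50, 95% interval -1.42 to 0.68, adjusted p = 0.862 by edgeR). It was -0.71 without midkine 2, -0.10 without vehicle 4 and -0.09 in the 10 libraries with MYH4 reads. Actin genes are near-identical in coding sequence, so reads could be shared among them by the counting. Midkine 1 had the highest ACTA1 level (59100 CPM, skeletal muscle actin) and the lowest ACTA2 level. Whether reads were shared among actin genes was not tested.

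MYH11, the smooth muscle myosin heavy chain, had lowest, median and highest levels of 441, 838 and 2030 CPM in vehicle tumours. The same figures were 192, 439 and 2520 CPM in midkine tumours. Its log2 fold change was -0.54 (SE 0.59, 95% interval -1.79 to 0.72, adjusted p = 0.822 by edgeR). Without midkine 2 the value was -1.03 (unadjusted p = 0.0673), and without vehicle 3 it was -0.27. In the 10 libraries with MYH4 reads it was -0.23.

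CNN1 encodes calponin, which binds actin and restrains the myosin ATPase. Vehicle libraries had 319, 504 and 949 CPM at the lowest, median and highest, and midkine libraries 96.5, 296 and 1040 CPM. Below every vehicle library lay 5 of 9 midkine libraries. The log2 fold change of -0.61 was the lowest of the 10, and its 95% interval included 0 (SE 0.53, interval -1.72 to 0.51, adjusted p = 0.758 by edgeR). It was -0.94 without midkine 2 and -0.34 in the 10 libraries with MYH4 reads.

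TAGLN, which encodes the actin-bundling protein transgelin, differed least. The vehicle range was 757 to 1820 CPM with a median of 1210, and the midkine range was 365 to 2770 CPM with a median of 908. The log2 fold change was -0.21 (SE 0.40, 95% interval -1.06 to 0.64, adjusted p = 0.907 by edgeR), and it turned to 0.023 with midkine 1 and midkine 5 left out together. Without midkine 2 it was -0.50 and without vehicle 3 -0.09. Without midkine 1 the log2 fold change of TAGLN was -0.087, and in the 10 libraries with MYH4 reads it was -0.071. TAGLN also broke most from ACTA2 in midkine 4-2, with 0.810 TAGLN reads per ACTA2 read against 0.228 to 0.549 elsewhere.

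MYLK encodes myosin light chain kinase, the enzyme that turns a calcium rise into contraction. Its lowest, median and highest levels were 431, 664 and 1230 CPM in vehicle and 166, 434 and 1350 CPM in midkine tumours. The log2 fold change of -0.53 (SE 0.42, 95% interval -1.43 to 0.37, adjusted p = 0.735 by edgeR) was -0.86 without midkine 2 (unadjusted p = 0.0338, adjusted p = 0.350) and -0.34 without vehicle 4. In the 10 libraries with MYH4 reads it was -0.24.

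OXTR, the oxytocin receptor gene, had the highest log2 fold change of the 10, with a 95% interval that included 0. Its lowest, median and highest levels were 9.30, 20 and 51.6 CPM in vehicle tumours and 5.49, 37.3 and 80.8 CPM in midkine tumours. Of 9 midkine libraries, 7 lay above the vehicle median and 3 above every vehicle library, while midkine 3-2 was the lowest of all 15. Means of 23.5 ± 15.7 CPM (SD, n = 6) and 41.8 ± 22.9 CPM (SD, n = 9) gave a log2 fold change of 0.83 (SE 0.48, 95% interval -0.19 to 1.85, unadjusted p = 0.104 and adjusted p = 0.598 by edgeR). The value ran from 0.65 without midkine 2 to 1.23 without vehicle 3 and was 1.06 in the 10 libraries with MYH4 reads (unadjusted p = 0.0453, adjusted p = 0.476). These values rest on 45 to 542 reads per library.

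**Figure D3:**
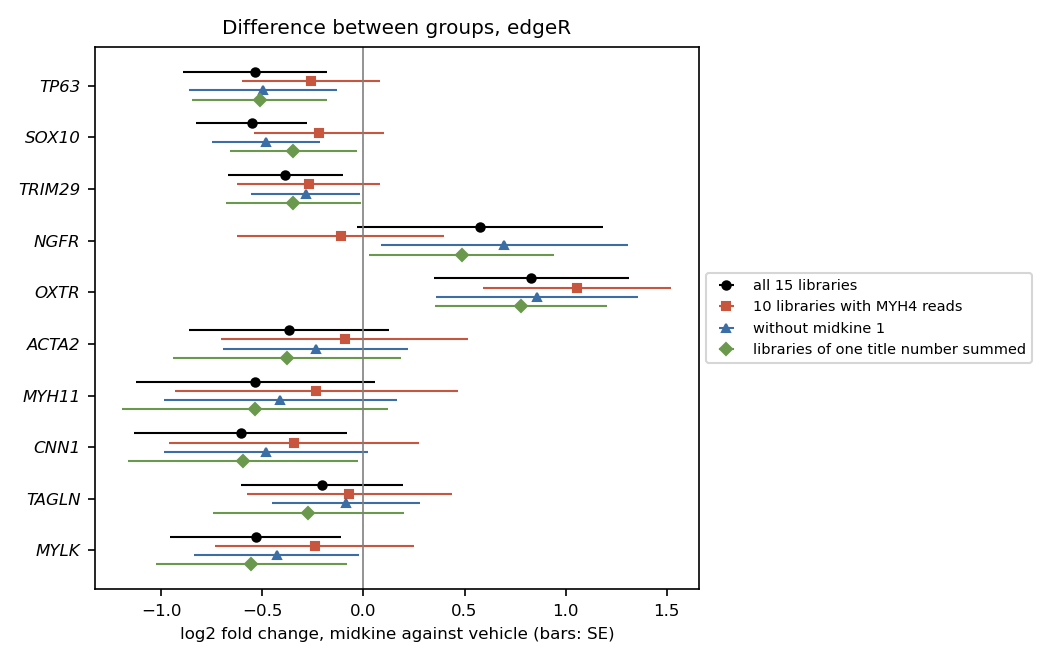
Log2 fold change of the 10 genes (horizontal axis, midkine against vehicle, bars showing the SE) by edgeR in all 15 libraries, in the 10 libraries with MYH4 reads, without midkine 1, and with libraries of 1 title number summed. OXTR stays between 0.78 and 1.06 in these 4 settings, NGFR crosses 0, and the other 8 genes stay below 0.

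Signalling genes between the oxytocin receptor and the myosin light chain were close to even: of 20 tested, 12 lay higher and 8 lower in midkine tumours, with 0 past the threshold and a median log2 fold change of 0.03. RGS2, which shortens signalling of Gq-coupled receptors such as OXTR, averaged 148 ± 72.3 CPM in 6 vehicle and 78.8 ± 34.4 CPM in 9 midkine libraries (SD), a difference of -0.91 on the log2 scale (SE 0.34, adjusted p = 0.399 by edgeR). It did not pass the threshold.

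**Figure D4:**
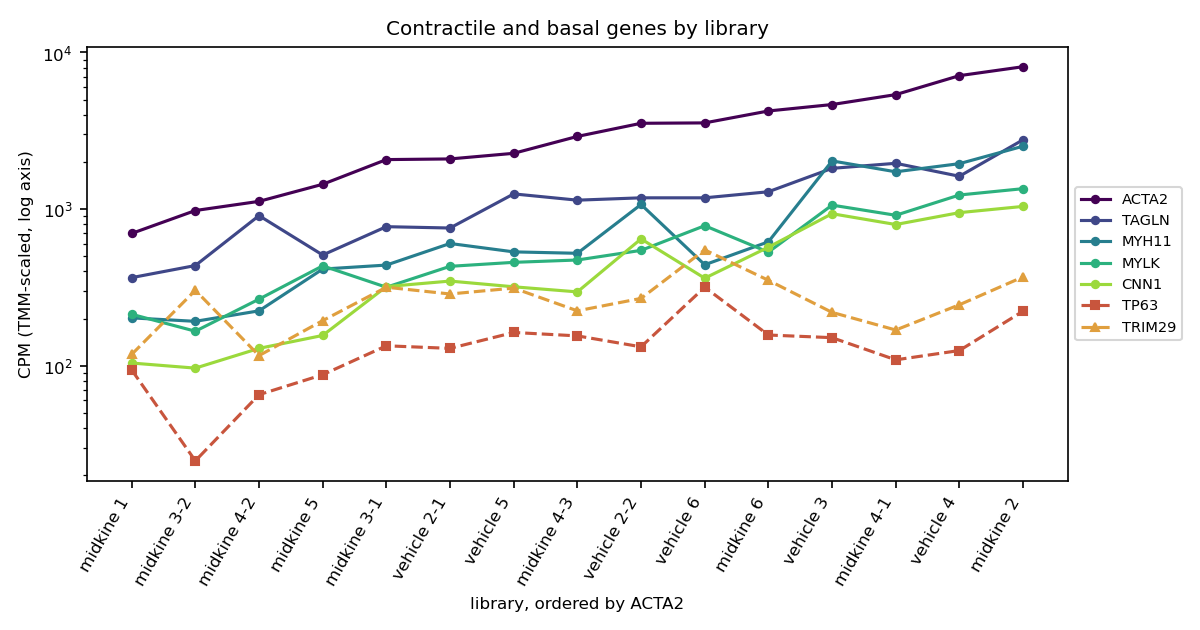
CPM (logarithmic axis) of the 5 contractile genes, TP63 and TRIM29 in each of the 15 libraries, ordered by ACTA2; lines join the points of a gene and heights are not comparable between genes. The 5 contractile curves climb together from midkine 1 and 3-2 to midkine 2, TP63 follows loosely, and TRIM29 stands at 303 CPM in midkine 3-2 where TP63 is at 24.7 CPM.

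From tumour to tumour the contractile genes varied as 1 block. Pearson's r of log2 CPM over the 15 libraries lay between 0.87 and 0.97 for all 10 pairs among ACTA2, MYH11, CNN1, TAGLN and MYLK. All 10 passed Benjamini-Hochberg adjustment over the 45 pairs of the 10 genes. ACTA2 and CNN1 had r = 0.97 and Spearman's rho = 0.95 (permutation p = 1e-05 for each, the smallest that 100000 permutations can give; adjusted p = 6.43e-05 for r and 5.62e-05 for rho). MYH11 and TAGLN, the loosest pair, had r = 0.87 and rho = 0.88 (permutation p = 5e-05 and 2e-05; adjusted p = 0.000225 for r and 9e-05 for rho). The 10 values were 0.81 to 0.95 without the 2 libraries farthest from the median of the first gene of the pair, and 0.88 to 0.96 in the 10 libraries with MYH4 reads. All libraries share 1 scaling, and several share a title number. The gene most like ACTA2 among 11653 candidates was MYL9, which encodes the smooth muscle regulatory light chain that MYLK phosphorylates (r = 0.98 over 15 libraries), followed by TSPAN2 and TGFB1I1 (0.94 each). For MYH11 the nearest were MYL9 (0.93), TSPAN2 (0.91) and ALPL (0.89).

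The basal regulators formed a looser group. SOX10 and TRIM29 had r = 0.75 and rho = 0.70 (permutation p = 0.00117 and 0.00472; adjusted p = 0.00479 and 0.0177), and TP63 and SOX10 had r = 0.63 and rho = 0.65 (permutation p = 0.00543 and 0.0106; adjusted p = 0.0188 and 0.0367). Without the 2 farthest libraries these values were 0.60 (midkine 1 and 4-2 left out, adjusted p = 0.0757 by permutation) and 0.57 (vehicle 6 and midkine 3-2 left out, adjusted p = 0.0989 by permutation), so neither passed there. In the 10 libraries with MYH4 reads SOX10 and TRIM29 passed (r = 0.78, adjusted p = 0.0222 by permutation) and TP63 and SOX10 did not (r = 0.53, adjusted p = 0.26). For TP63 and TRIM29 r was 0.48 and rho 0.71 (permutation p = 0.0751 and 0.00364; adjusted p = 0.188 and 0.0149). Leaving out vehicle 6 and midkine 3-2 raised their r to 0.85 (adjusted p = 0.00118 by permutation). In the 10 libraries with MYH4 reads TP63 and TRIM29 passed too (r = 0.88, adjusted p = 0.00503 by permutation). The genes most like TP63 were JAG2, a Notch ligand gene (r = 0.93), WDR31 (0.93) and ENTPD8 (0.93), and those most like SOX10 were NRADD (0.90), CDC42BPG (0.88) and TGIF2 (0.88).

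Basal regulators and contractile genes were less closely related. Of the 15 pairs of a basal regulator (TP63, SOX10 or TRIM29) with a contractile gene, 4 passed by r, all with TP63: MYLK (0.69), ACTA2 (0.64), CNN1 (0.64) and TAGLN (0.62), at adjusted p from 0.0112 to 0.0349 by permutation. Their rho was 0.52 to 0.58 and passed for none (adjusted p from 0.0793 to 0.127 by permutation). In the 10 libraries with MYH4 reads r was 0.47 to 0.65 for these pairs, and none of the 15 passed; TRIM29 had r = 0.62 with ACTA2 and 0.50 with CNN1 there, against 0.58 and 0.47 for TP63. With libraries of 1 title number averaged, the 4 pairs had r of 0.58 to 0.68 and none passed (adjusted p from 0.075 to 0.164 by permutation). Centred on group means, the pairs with MYLK (0.63) and ACTA2 (0.59) passed and those with CNN1 and TAGLN (0.57 each) did not. Without vehicle 6 and midkine 3-2, the pairs with ACTA2 (0.68) and CNN1 (0.69) passed and those with TAGLN (0.62) and MYLK (0.58) did not. SOX10 and TRIM29 had r between 0.23 and 0.46 with the contractile genes. OXTR had r between 0.37 and 0.46 with them and NGFR between -0.31 and -0.23, and neither gene passed with any of the other 9 over all 15 libraries. Centred on group means, r of OXTR with the contractile genes was 0.55 to 0.67. It then passed with MYH11 (0.67, adjusted p = 0.0226 by permutation), MYLK (0.64, 0.0305), CNN1 (0.63, 0.0305) and TP63 (0.63, 0.0474), and not with ACTA2 or TAGLN (0.55 each, adjusted p = 0.069). None of these passed in the 10 libraries with MYH4 reads, where r with TP63 was -0.24, or with libraries averaged by title number. The genes most like OXTR were RPP25L (r = 0.88), RPS24 (0.87) and SLC25A39 (0.86).

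**Figure D5:**
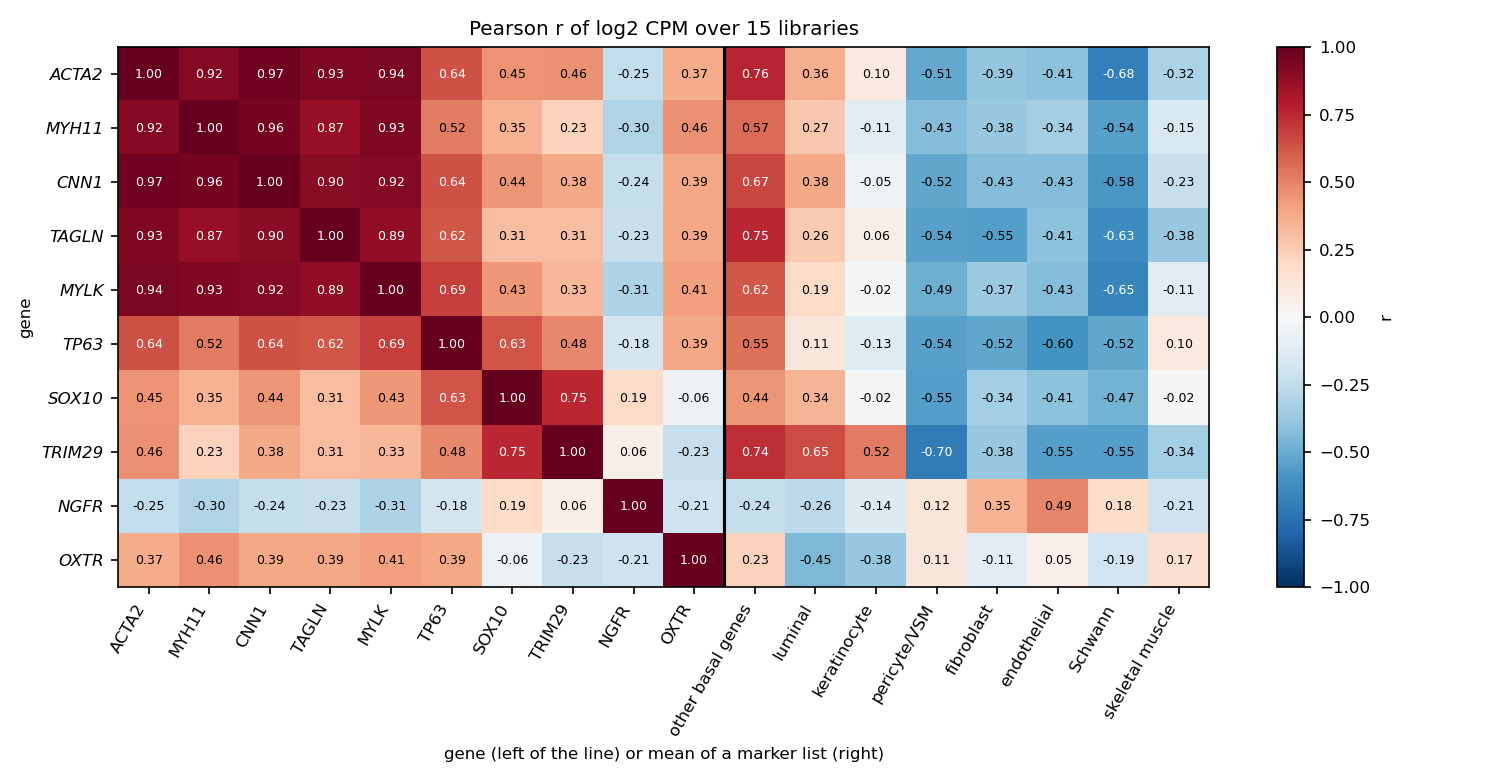
Pearson's r of log2 CPM over 15 libraries between the 10 genes (left of the line) and between each gene and the mean of 8 marker lists (right of the line); red is positive and blue negative. The 5 contractile genes form a block of 0.87 to 0.97, and their r with pericyte, fibroblast and endothelial lists lies between -0.55 and -0.34.

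Contractile genes had positive r with other basal genes and negative r with markers of the vessel wall and of fibroblasts. Their r with a list of 15 other basal genes was 0.57 to 0.76. It was -0.54 to -0.43 with the list of pericytes and vascular smooth muscle cells and -0.55 to -0.37 with fibroblasts. With endothelial cells it was -0.43 to -0.34 and with Schwann cells -0.68 to -0.54. None of their relations with the pericyte, fibroblast or endothelial list passed. Negative r was not particular to them, as TP63, SOX10 and TRIM29 had -0.70 to -0.34 with the pericyte, fibroblast, endothelial and Schwann lists. Of 80 relations of a gene with a list, 4 passed by r: other basal genes with ACTA2 (r = 0.76, rho = 0.75), TAGLN (r = 0.75, rho = 0.75) and TRIM29 (r = 0.74, rho = 0.65), and Schwann cell genes with ACTA2 (r = -0.68, rho = -0.54). Permutation p-values for r were 0.00103, 0.00153, 0.00204 and 0.00245, each with an adjusted p of 0.049. For rho they were 0.00164, 0.00185, 0.01 and 0.0396 (adjusted p = 0.037, 0.037, 0.089 and 0.198). None of the 4 passed without midkine 1, where the r values were 0.68, 0.66, 0.64 and -0.54. The r values without the 2 farthest libraries were 0.74, 0.73, 0.52 and -0.38, and none of the 4 passed (adjusted p = 0.0733, 0.0733, 0.313 and 0.425 by permutation). The 1 relation that passed there was TP63 with other basal genes (r = 0.88, adjusted p = 0.0072 by permutation). By rank, TP63 and other basal genes had rho = 0.83 (permutation p = 0.0003, adjusted p = 0.024) and r = 0.55 (permutation p = 0.0342, adjusted p = 0.139). TP63 also passed by rank with fibroblast genes (rho = -0.76, permutation p = 0.00125, adjusted p = 0.037; r = -0.52, adjusted p = 0.171) and endothelial genes (rho = -0.74, permutation p = 0.00247, adjusted p = 0.0395; r = -0.60, adjusted p = 0.109). JAG2 belongs to the list of other basal genes.

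Several contractile genes share regulation by serum response factor, which binds the CArG box. Of the 10 genes, 5 (TP63, ACTA2, CNN1, MYLK and OXTR) had a promoter in the RefSeq table of build GRCr8, and SOX10, TRIM29, NGFR, MYH11 and TAGLN had none there. The 250 bases before each start were searched on both strands for the CArG box, for a CArG-like form that lets 1 of its inner 6 bases be other than A or T, and for the MCAT box CATTCC, the site of TEAD factors. The exact CArG box was in 0 of the 5 and in 1.52% of 21842 promoters of protein-coding genes. Of the 5, the CArG-like form was in ACTA2 alone (8.04% of all), at 134 to 125 and 84 to 75 bases before the start. The MCAT box was in ACTA2 (196 to 191 bases before the start, reverse strand) and MYLK (36 to 31 bases before), and in 11% of all. Such matches describe these letters and no binding. The stretches are shown because these 2 contractile genes held matches, with capitals for CArG-like and MCAT matches, at chr1:241172558-241172719 for ACTA2 and chr11:79498585-79498630 for MYLK, both on the minus strand:
ACTA2: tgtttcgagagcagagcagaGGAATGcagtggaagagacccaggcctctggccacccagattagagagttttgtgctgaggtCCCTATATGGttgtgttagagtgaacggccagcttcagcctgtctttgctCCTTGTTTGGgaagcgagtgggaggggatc
MYLK: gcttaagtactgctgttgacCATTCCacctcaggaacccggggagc

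SRF itself, the gene of serum response factor, was even between the groups with means of 135 ± 25.8 CPM over vehicle libraries (SD, n = 6) and 146 ± 38.0 CPM over midkine libraries (SD, n = 9). MYOCD, its muscle co-activator gene, was at or below 0.714 CPM in every library and was not tested. Of the 5 tested genes of this list all lay higher in midkine tumours, with 0 past the threshold and a median log2 fold change of 0.67. KLF4, which encodes a repressor of smooth muscle genes, averaged 28.6 ± 10.1 CPM (SD, n = 6) against 89.5 ± 65.0 CPM (SD, n = 9), a log2 fold change of 1.65 (SE 0.44, adjusted p = 0.399 by edgeR), and DESeq2 called it (adjusted p = 0.0322). FHL2, a co-factor gene, had 1.21 (SE 0.57), or 0.49 without midkine 3-2.

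Other genes of the contractile apparatus were mixed in direction. Of 17 tested, 11 lay higher and 6 lower in midkine tumours, with 0 past the threshold and a median log2 fold change of 0.51. Without midkine 1 the split was 8 to 9 and the median -0.05. DES, the muscle intermediate filament gene desmin, reached 8060 CPM in midkine 1 and at most 173 CPM elsewhere, and its log2 fold change of 4.97 (SE 1.59) was 1.17 without that library. SYNPO2, an actin-bundling gene of muscle, had 2.20 (SE 0.95) and 0.51 without midkine 1. MYL9 averaged 862 ± 354 and 598 ± 454 CPM, a difference of -0.53 on the log2 scale (SE 0.44, adjusted p = 0.748 by edgeR).

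Other basal genes lay near even, 6 of 15 higher and 9 lower, with 0 past the threshold and a median log2 fold change of -0.17. The basal keratin gene KRT5 averaged 1440 ± 440 CPM in 6 vehicle and 1290 ± 971 CPM in 9 midkine libraries (SD), a difference of -0.17 on the log2 scale (SE 0.44), and it turned to 0.18 in the 10 libraries with MYH4 reads. Its partner KRT14 had 0.43 (SE 0.37). MME, which encodes the surface peptidase CD10 of myoepithelial cells, had medians of 16.2 CPM over the vehicle and 33.3 CPM over the midkine libraries, a difference of 0.93 on the log2 scale (SE 0.37, adjusted p = 0.431 by edgeR), and the caveolin gene CAV1 had 0.55 (SE 0.28).

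Markers of the other cells that could supply these transcripts had 0 genes past edgeR's threshold; of those named here, DESeq2 called DPT (adjusted p = 0.0428) and CLDN5 (0.034). Of 12 genes of pericytes and vascular smooth muscle, 9 lay higher in midkine tumours (median log2 fold change 0.75; GJA4 1.04, SE 0.33; AOC3 2.32, SE 0.85, or 1.53 without midkine 1; RGS5 0.48, SE 0.35). The other 3 lay lower: NOTCH3 (-0.448, SE 0.194), HIGD1B (-0.432, SE 0.535) and MCAM (-0.404, SE 0.351). The summed level of that list was 444 to 751 CPM in vehicle libraries (median 589) and 515 to 749 CPM in midkine libraries (median 588). CASQ2 was at 0 in at least 1 vehicle library. All 9 tested fibroblast genes lay higher (median 1.65), with summed levels of 502 to 10900 and 329 to 145000 CPM; COL1A2 and TCF21 were at 0 in at least 1 library of each group. DPT and FAP, both made by fibroblasts, had 2.63 (SE 0.85) and 2.10 (SE 0.81), or 2.14 and 1.10 without midkine 5, which also held 82100 CPM of COL1A1 (2.82, SE 1.24, and 0.46 without it). All 10 endothelial genes lay higher (median 0.79; CLDN5 2.22, SE 0.66; PECAM1 1.03, SE 0.38), with summed levels of 210 to 490 and 246 to 1170 CPM.

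Schwann cell markers bear on SOX10 and NGFR. CDH19 and SCN7A were at 0 in at least 1 library of each group. Of 7 tested genes 4 lay higher in midkine tumours (median log2 fold change 0.41, or -0.08 without midkine 1), with summed levels of 73.9 to 107 and 60.7 to 1380 CPM. S100B had -0.035 (SE 0.54). CRYAB, shared with muscle, had 2.22 (SE 1.01) and -0.080 without midkine 1.

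All 10 tested skeletal muscle genes lay higher (median 6.34), at summed levels of 312 to 727 CPM in vehicle and 34.7 to 304000 CPM in midkine libraries. Without midkine 1, 6 lay higher with a median of 0.31. MYH2 and MYH1 had 6.34 (SE 2.04) and 6.34 (SE 2.11), or 3.37 and 2.83 without that library, and MYH4 and ACTA1 had 6.56 (SE 3.07) and 5.49 (SE 2.19), or -1.91 and 0.57. Of 14 luminal genes 11 lay lower (median -0.46; KIT -1.13, SE 0.56; CLDN3 -0.47, SE 0.21), and KRT8 had 0.34 (SE 0.41), or 0.02 without midkine 4-3. Summed luminal levels were 5300 to 7750 and 2340 to 12700 CPM. All 7 leukocyte genes lay higher (median 1.46), PTPRC at 2.54 (SE 0.86) and CD3E at 2.75 (SE 0.95), or 1.45 and 1.86 without midkine 4-2, at summed levels of 483 to 1130 and 432 to 7240 CPM. In the 10 libraries with MYH4 reads the leukocyte median was 0.20. Of 5 keratinocyte genes 4 lay higher (median 0.18; PKP1 0.67, SE 0.44; TGM1 0.38, SE 0.44, or 0.41 and -0.14 without midkine 3-2), while KRT1, KRT16, SPRR1A and IVL were at 0 in at least 1 library of each group. The part of these cells in the levels of the 10 genes was not tested.

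Libraries that share a title number differed to unlike degrees. Vehicle 2-1 and 2-2 differed by 1.02-fold for TP63, 1.05-fold for SOX10 and 1.07-fold for TRIM29, 1.26-fold for MYLK, 1.69-fold for ACTA2 and 1.86-fold for CNN1. Among midkine 4-1, 4-2 and 4-3 SOX10 spanned 1.34-fold, TRIM29 1.93-fold, TP63 2.37-fold, ACTA2 4.80-fold and MYH11 7.72-fold. Midkine 3-1 and 3-2 were 1.05-fold apart for TRIM29, 1.84-fold for SOX10, 5.43-fold for TP63 and 10.7-fold for OXTR.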

How the data were processed

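The authors deposited raw read counts, whole numbers per gene symbol and library, as the table's header and values show. Build rn6 is named in the submitters' processing notes. For the aligner version, counting mode, strand setting and annotation the entry is: not given in the sources used here. Reads of paralogs, or of genes that overlap, may therefore be shared or split. Per the labels' protocols, 3000 ng of RNA went into poly(A)-selected libraries read as 150-bp pairs.

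Counts were fitted in R 4.3.3 with edgeR 4.0.16 (filterByExpr by group, trimmed-mean scaling, quasi-likelihood F test, Benjamini-Hochberg over all genes), which kept 11665 genes. A standard error is the log2 fold change over the root of its F. DESeq2 1.42.0 and limma-voom (limma 3.58.1) were run beside it. Relations used log2 CPM (prior count 2), Pearson's r and Spearman's rho with two-sided permutation p (100000 resamples), adjusted over 45 pairs or 80 gene and list relations. The scripts were tested on simulated data.

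The genes, lists and rule for named genes were chosen with earlier results of these data known. The rule took the 10 genes, the 2 genes of smallest p from each list, KRT5, KRT14, RGS5, COL1A1, S100B, MYH4, ACTA1, KRT8 and PECAM1, and the 3 genes of highest r to TP63, SOX10, ACTA2, MYH11 and OXTR. SRF, MYOCD, the fold change of MYL9, NOTCH3, HIGD1B, MCAM, the B cell genes and genes named as being at 0 were chosen after their values were seen. Groups came from the titles and treatment labels. Libraries of a group all differed by more than counting noise (lowest chi-square 20.3 per degree of freedom). MRTFA, MRTFB, COL6A3, FOXD3, TTN, NEB, CD79A, KRT6A, LOR and SFN of the lists were not analysed here. Some genes that the rule names are not reported here.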

Additional observations from a re-analysis of the deposited data

Results flagged for a closer look

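In 20 combinations of gene and group, 3 values stood far from the rest of their group. The measure was the gap to the nearest library as a share of the group's range. Chance would flag about 1 group in 20 if values were independent and normally distributed. CPM were not log-transformed here and several of the genes varied together, so that rate may not hold. Vehicle 6 held 317 CPM of TP63 with the next vehicle library at 163, a gap of 0.80 of the range against a limit of 0.625 for 6 libraries. Vehicle 6 also held 549 CPM of TRIM29 with the next at 313 (0.72 of the range). Midkine 2 held 424 CPM of SOX10 with the next midkine library at 274 (0.51 of the range, limit 0.493 for 9 libraries).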

How the results depend on the processing

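Over 11 other settings and 15 fits that each left out 1 library, edgeR and limma-voom called 0 genes and DESeq2 called 83, and none of the 10 genes was called in any of them. With deposited totals alone the median log2 fold change of all genes moved from 0.04 to -0.103, and 8 of the 10 genes still lay below 0. The sign of NGFR turned in the 10 libraries with MYH4 reads (-0.113) and that of TAGLN without midkine 1 and 5 (0.023). In those 10 libraries TGM1 turned to -0.475, KRT5 to 0.179, RGS5 to -0.094, S100B to 0.496 and KRT8 to -0.268. Without midkine 1 and 5, CRYAB turned to -0.239, MYH2 to -0.094, MYH1 to -0.627, KRT5 to 0.051, MYH4 to -2.284 and ACTA1 to -0.988. DESeq2 gave -0.069 for CRYAB and -1.708 for MYH4, limma-voom -5.253 for MYH4 and -0.293 for ACTA1, and libraries summed by title number 0.433 for S100B. Leaving out 1 library at a time gave -0.08 to 2.373 for CRYAB, -0.136 to 0.511 for TGM1, -0.507 to 0.284 for S100B and -1.914 to 6.741 for MYH4. The causes were not tested. The number of gene and list relations past the threshold was 2 with a prior count of 0.5, 7 with deposited totals, 1 in the 10 libraries with MYH4 reads, 0 with libraries averaged by title number, 0 without midkine 1 and 1 without the 2 farthest libraries.

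Of 9 pairs of libraries across groups with the same title number, 2 correlated above 0.1 (r from -0.443 to 0.189). Pairs within a group that share a number ran from -0.369 to 0.217. This measure therefore cannot decide whether title numbers pair the libraries. With the title number as a replicate block, 0 genes were called and 323 had an unadjusted p under 0.05 against 1178, OXTR had 0.935 and SOX10 -0.252, and CRYAB (-0.021), MYH4 (-4.491) and ACTA1 (-0.69) changed sign. NGFR had as few as 15 reads in a library and OXTR 45.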
